A study of Mus musculus with 10 samples.

Results

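The collagen gene family was described in lung RNA of mice fed a fish oil or a coconut oil diet. Its members were all gene symbols of the deposited count table that read Col, a type number, the letter a and a chain number, which gave 44 genes of the 24059 symbols in the table. Female C57Bl/6 mice received a high-fat, semipurified diet with 19% fat for 8 weeks, and the labels give an age of 14 weeks. They also give 0.2% cholesterol for both diets, where the paper's diet composition lists less for the fish oil than for the coconut oil diet. The FO group (5 mice) received menhaden fish oil with corn oil, and the CO group (5 mice) received coconut oil with olive oil and corn oil. Lungs were flushed with PBS after airway function testing, and RNA of the whole lung was sequenced, 1 library per mouse. The question was whether the diets differed in the expression of collagen genes, and which of these genes could be measured at all.

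Collagens are secreted proteins whose chains wind around each other into a triple helix. Fibrillar collagens form the load-bearing fibrils of the airway wall, vessels and pleura, while type IV collagen forms the sheet-like network of the basement membranes on which epithelium and endothelium rest. Other members form beaded filaments, coat fibrils, anchor epithelium or cross the cell membrane, and in lung most fibrillar collagen is made by fibroblasts.

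The libraries differed widely in depth. Totals ranged from 229766 counts in CO mouse 1 to 1124963 counts in FO mouse 2, and Rn45s, the gene of a ribosomal RNA precursor, took between 21.8% and 87.0% of them. All other genes together had between 45177 counts (CO mouse 1) and 473254 counts (FO mouse 2). The collagen family held 58 counts in FO mouse 3 and in CO mouse 1, and 706 counts in FO mouse 2, or 2445 counts over the 10 mice. Levels are given as CPM, the count relative to a library size adjusted by edgeR's TMM factors. The floor below which a value was not read, 3 counts per mouse, was 2.29 CPM in FO mouse 2 and 19.9 CPM in CO mouse 1. The floors and the intervals of shares cover counting error only, while those of the log2 fold changes include the variation between mice.

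As a share of the counts outside Rn45s, the family took 0.122% ± 0.0223 with FO and 0.133% ± 0.0172 with CO (SD, n = 5 each). The lowest share was 0.0887% (95% exact Clopper-Pearson interval 0.0704% to 0.110%) in FO mouse 5. The highest was 0.149% (0.138% to 0.161%) in FO mouse 2, and the groups overlapped.

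A pair of libraries stood apart. Malat1, a long noncoding RNA kept in the nucleus, was high in FO mouse 2 (8.53% of counts other than Rn45s) and CO mouse 5 (6.15%), and no other mouse exceeded 1.05%. These 2 mice held 39.0% of all counts outside Rn45s and 44.2% of all collagen counts. Several low members had a larger part of their counts there, with 38 of 47 counts of Col4a4, 38 of 60 of Col4a3 and 88 of 131 of Col6a1.

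The table also held a gap that touches the family. All 890 symbols of the table that matched chromosome 15 were listed at 0 counts in every mouse, where on the other autosomes between 32.0% and 47.9% of genes had no count. Rpl3, Rpl8, Tuba1b and Eef1d, which nearly every cell expresses, were among those at 0. Col2a1, Col14a1 and Col22a1 lie on chromosome 15, so that their zeros are not a measure of expression. No level is read for these genes, but they enter the class counts, shares and sums as 0.

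**Figure D1:**
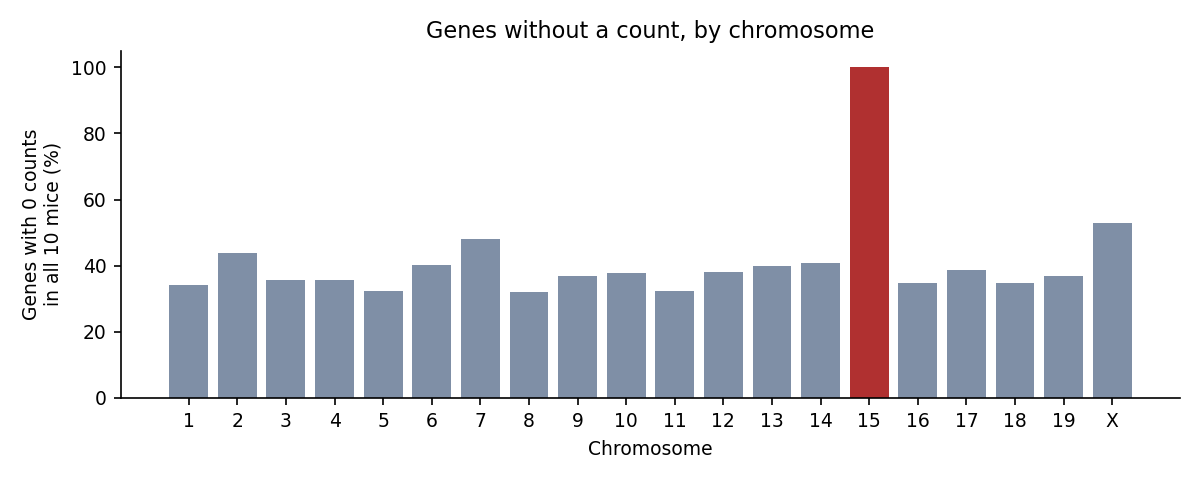
Share of the genes in the count table that had 0 counts in all 10 mice (y axis, percent), for each chromosome (x axis, GRCm38, autosomes and X). The bar of chromosome 15, in red, reaches 100%, and those of the other autosomes lie between 32.0% and 47.9%.

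Of the 44 members, 32 had a count in at least 1 mouse, 9 had none on chromosomes where other genes were counted, and 3 lay on chromosome 15. A filter on low counts, edgeR's default, kept the genes that reached about 10 counts per library of median size (an unscaled level of 23.1 CPM) in at least 5 mice. It kept 6 collagen genes, Col1a1, Col1a2, Col3a1, Col4a1, Col4a2 and Col6a3, which held 1710 of the 2445 counts (69.9%). It removed 26 with a count. Of these 26, 8 were above the floor in at least 5 mice, 9 in 1 to 4 mice and 9 in no mouse. Only Col1a1, Col1a2 and Col3a1 were above the floor in every mouse. Col4a2 passed through 1 FO mouse and 4 CO mice, and Col6a3 through 2 FO mice and 3 CO mice, so both were at the edge of the filter. Col6a1 and Col6a2 reached that level in 2 mice each.

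**Figure D2:**
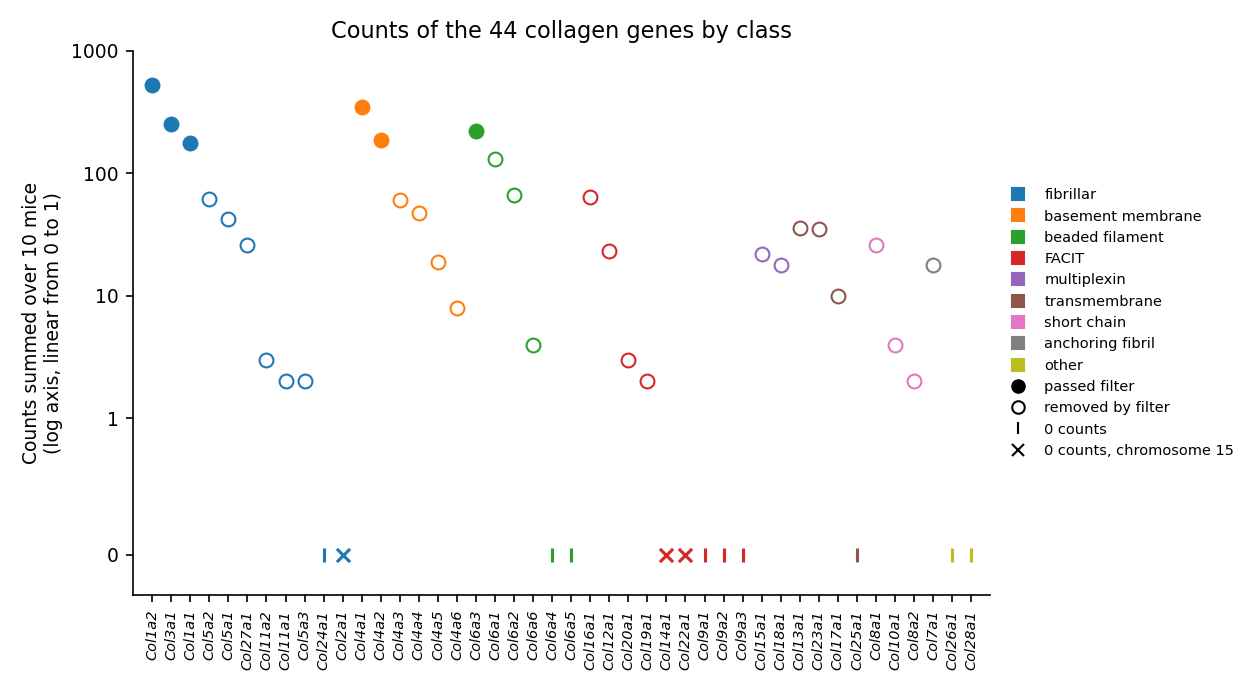
Counts of each of the 44 collagen genes summed over 10 mice (y axis, logarithmic above 1), with genes ordered by class on the x axis and classes shown by color. Filled circles mark the 6 genes that passed the filter, open circles the 26 removed by it, bars the 9 genes at 0 and crosses the 3 genes of chromosome 15. The highest value is 521 counts for Col1a2.

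The classes differed in how far they could be measured. Among 11 fibrillar genes, 3 passed the filter, another 6 had a count and 1 (Col2a1) lay on chromosome 15. The class held 44.5% of all collagen counts. All 6 genes of the basement membrane network had a count and 2 passed, with 27.4% of the counts. Of 6 genes of the beaded filament class, type VI collagen, 4 had a count and 1 passed, with 17.3%. The other 21 genes held 10.8% of the counts and none passed the filter. Of these 21, 2 (Col14a1 and Col22a1) lay on chromosome 15 and were not measured.

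When levels were compared per kilobase of annotated exon length, Col1a2 stood first with 16.7 ± 3.62 CPM per kb (SD, n = 10 mice). It was above the next gene, Col3a1 at 8.64 ± 3.37 CPM per kb, in 9 of 10 mice. Col3a1 and Col4a1 (8.19 ± 3.08 CPM per kb) did not differ beyond their spread, as Col3a1 was the higher in 5 of 10 mice. Col1a1 followed at 5.02 ± 1.43, Col4a2 at 4.29 ± 2.46, Col6a1 at 4.19 ± 3.80 and Col6a3 at 3.09 ± 1.30 CPM per kb. Col6a1 did not pass the filter, and was above the floor in 7 of 10 mice and above Col6a3 in 5 of 10. Neighbours in this order from Col4a1 down to Col16a1 overlapped, with mean differences between them smaller than the SD of the difference over mice. The other 25 genes with a count were at 2.10 CPM per kb (Col16a1) or less, and 9 of them were above the floor in no mouse, so that their levels are not read.

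The fibrillar genes that passed the filter encode the chains of type I collagen (Col1a1 and Col1a2) and of type III collagen (Col3a1), the main fibril collagens of lung. Differences between the diets in these 3 genes were smaller than the spread between mice. In bulk lung, fewer cells that make a collagen and less of its RNA per cell cannot be told apart.

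Col1a2, on chromosome 6 from 4505618 to 4541543 (GRCm38), had 97.8, 103, 116, 95.1 and 62.2 CPM in FO mice 1 to 5. In CO mice 1 to 5 it had 106, 85.2, 87.6, 53.5 and 84.0 CPM. The lowest mouse of each group, FO 5 and CO 4, lay well apart from the others, and the groups overlapped. The means were 94.9 ± 19.98 CPM with FO and 83.3 ± 19.0 CPM with CO (SD, n = 5 each). The log2 fold change, FO over CO, was 0.23 (SE 0.25, 95% interval -0.29 to 0.75), with an adjusted p of 0.998 in edgeR's quasi-likelihood test.

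Col1a1, on chromosome 11 from 94936224 to 94953042, had 31.1, 38.2, 25.8, 18.5 and 29.5 CPM in FO mice 1 to 5. The CO mice had 46.5, 21.3, 35.0, 29.4 and 22.3 CPM. CO mouse 1 was the highest, on 7 counts, FO mouse 4 was the lowest, and the groups overlapped. On the log2 scale FO differed from CO by -0.01 (SE 0.31, 95% interval -0.66 to 0.64, edgeR adjusted p = 0.998).

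Col3a1, on chromosome 1 from 45311538 to 45349706, had 54.1, 47.4, 64.5, 38.3 and 39.3 CPM in FO mice 1 to 5. In the CO group the values were 53.2, 90.6, 32.9, 30.4 and 30.2 CPM. CO mouse 2 was the highest of all, on 17 counts, while CO mice 3, 4 and 5 were the lowest of all, so the CO values spread on either side of the FO values. Its log2 fold change was 0.17 (SE 0.33, 95% interval -0.52 to 0.85, edgeR adjusted p = 0.998).

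**Figure D3:**
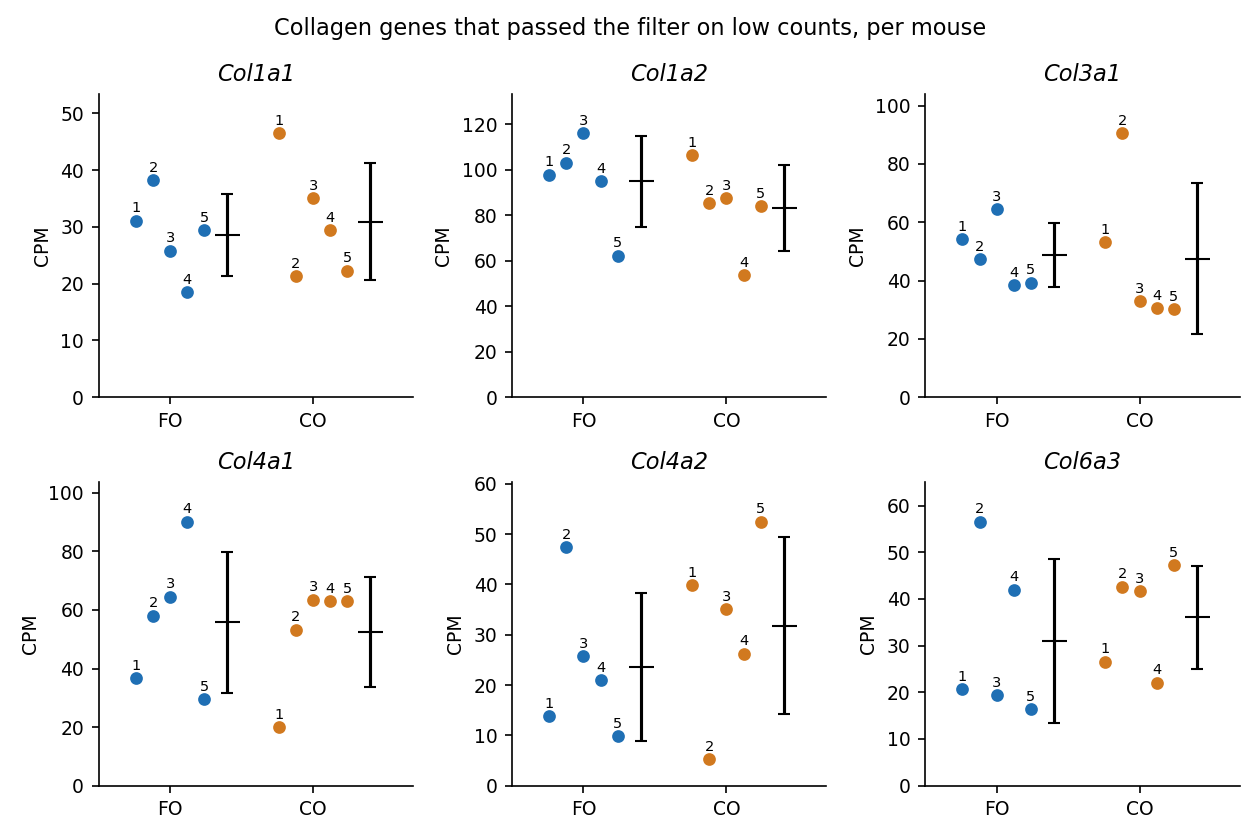
CPM (y axis) of the 6 collagen genes that passed the filter in each mouse of the FO group (blue) and the CO group (orange), with the mouse number above each point. Horizontal bars and whiskers beside the points are the group mean and SD (n = 5 each), and in every panel the groups overlap.

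The chains of a type I collagen trimer come from both genes, with more of the chain that Col1a1 encodes. In the counts Col1a2 was higher than Col1a1 in all 10 mice. Of the counts on both genes together, Col1a1 took 25.4%, with a range from 16.3% (95% exact Clopper-Pearson interval 9.42% to 25.5%) in FO mouse 4 to 35.4% (25.0% to 47.0%) in CO mouse 4. Per kb of exon length Col1a2 was 3.32 times as high as Col1a1. The share of Col1a1 was 23.6% ± 6.47 with FO and 27.1% ± 6.53 with CO (SD, n = 5 each), a difference smaller than the spread between mice.

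The other fibrillar genes did not pass the filter. Col5a2 (62 counts) and Col5a1 (42 counts) encode chains of type V collagen, which sits inside type I fibrils and limits their width, and Col27a1 had 26 counts. Col11a2, Col11a1 and Col5a3 had 3, 2 and 2 counts, Col24a1 had 0, and Col2a1 was among the genes of chromosome 15.

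Type IV collagen makes the network of basement membranes, and its most widespread form is built of the chains of Col4a1 and Col4a2. These genes lie head to head on chromosome 8, and their annotated ranges overlap. For both genes the diets differed by less than their mice did.

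Col4a1 had 36.8, 58.1, 64.5, 90.2 and 29.5 CPM in FO mice 1 to 5 and 19.9, 53.3, 63.5, 63.0 and 63.0 CPM in CO mice 1 to 5. CO mouse 1, on 3 counts, lay at the floor and far below the other CO mice, and FO mouse 4 was the highest. For this gene the log2 fold change was 0.01 (SE 0.33, 95% interval -0.68 to 0.70, edgeR adjusted p = 0.998).

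Col4a2 had 13.8, 47.4, 25.8, 21.0 and 9.82 CPM in FO mice 1 to 5 and 39.9, 5.33, 35.0, 26.2 and 52.5 CPM in CO mice 1 to 5. The highest mouse of each group was the one with high Malat1, and CO mouse 2 had 1 count, under its floor. The log2 fold change was -0.41 (SE 0.43, 95% interval -1.32 to 0.50, edgeR adjusted p = 0.998), the widest interval of the 6 genes. Per kb Col4a1 was above Col4a2 in 9 of 10 mice. The exception, CO mouse 1, had 3 counts of Col4a1, at the floor, and 6 of Col4a2. In CO mouse 2 and FO mouse 5 Col4a2, on 1 and 3 counts, was itself under or at the floor.

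The chains of Col4a3, Col4a4 and Col4a5 form the network of the alveolar and glomerular basement membranes. Col4a3 had 60 counts, Col4a4 47, Col4a5 19 and Col4a6 8 over the 10 mice. For Col4a4, FO mouse 2 had 22 counts and CO mouse 5 had 16, and each of the other mice had at most 5.

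Type VI collagen forms beaded filaments close to the cell surface. Col6a3 encodes its longest common chain, and had 20.7, 56.6, 19.4, 42.0 and 16.4 CPM in FO mice 1 to 5. In CO mice 1 to 5 it had 26.6, 42.6, 41.6, 22.0 and 47.2 CPM. FO mouse 2 and CO mouse 5 were the highest of their groups, and the groups overlapped. Between the diets the log2 fold change was -0.07 (SE 0.37, 95% interval -0.85 to 0.70, edgeR adjusted p = 0.998).

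Its partner chains Col6a1 (131 counts) and Col6a2 (66 counts) were removed by the filter. Col6a1 had 54 counts in FO mouse 2 and 34 in CO mouse 5, and at most 13 in any other mouse. Col6a6 had 4 counts, all in those 2 mice, and Col6a4 and Col6a5 had 0.

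Of the fibril-associated collagens (FACIT), which coat fibrils without forming them, Col16a1 had 64 counts and Col12a1 23. Col20a1 had 3 and Col19a1 2 counts, and Col9a1, Col9a2 and Col9a3, partners of type II collagen in cartilage, had 0. Col14a1 and Col22a1, also of this class, lie on chromosome 15 and were not measured. The transmembrane collagens Col13a1, Col23a1 and Col17a1 had 36, 35 and 10 counts, and Col25a1 had 0. Col17a1 is a component of hemidesmosomes, which fix epithelial cells to the basement membrane.

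Col15a1 and Col18a1, multiplexins of basement membrane zones, had 22 and 18 counts. The anchoring fibril gene Col7a1 had 18 counts. Col8a1, a short-chain collagen of vessel walls, had 26 counts, Col8a2 had 2, and Col26a1 and Col28a1 had 0.

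Apart from Col2a1, which was not measured, cartilage collagens were at or near 0. Besides the 0 counts of the type IX genes, Col11a1 and Col11a2 had at most 2 counts in any mouse, and Col10a1 had 4 in all. Of 8 marker genes of airway cartilage, 6 (Acan, Comp, Hapln1, Lect1, Matn1 and Matn3) were at 0 in every mouse. The list summed to 5.02 ± 4.78 CPM with FO and 3.32 ± 2.63 CPM with CO (SD, n = 5 each), with Sox9 the most abundant. The sum was under the floor in FO mice 3 and 5 and CO mice 1, 2, 4 and 5, so these means are not compared.

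The number of collagen genes that passed the threshold of the study's methods, an unadjusted p under 0.05, was 0 of the 6 tested with edgeR. Over all 2438 genes tested with the same filter, 71 (2.91%) passed it, 41 of them higher with FO and 30 lower, and 0 passed after adjustment. The groups did not overlap in 0 of the 6 collagen genes, against 0.410% of all genes tested. DESeq2 called 0 of the 6 collagen genes and 62 of all genes. The 95% intervals of the 6 log2 fold changes had lower bounds from -1.32 to -0.29 and upper bounds from 0.50 to 0.85, and differences within them are not excluded.

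When edgeR was fitted to every gene with a count, 14161 in all, 1 of 32 collagen genes passed the unadjusted threshold, against 587 (4.15%) of all genes. It was Col10a1, a cartilage collagen, with 1, 0, 0, 1 and 2 counts in FO mice 1 to 5 and 0 in every CO mouse. Both groups lay under the floor in every mouse, so no fold is given, and its edgeR adjusted p was 0.905. The call was lost with DESeq2, with the replicate number as a block, without FO mouse 5 and without CO mouse 3. In each of these fits 0 collagen genes were called. The share of all genes called is not given for them, so the drop from 1 to 0 is not read as a result on collagens. Without CO mouse 4 or with library size alone Col8a2 was called in place of Col10a1, and without CO mouse 5 Col4a4 was. Col8a2 had 2 counts in all, both in CO mouse 5 and under its floor. For the fits that called Col8a2 the share of all genes called is not given either, so its calls are not read. Col10a1 overlaps Nt5dc1, and without a stated strand setting reads of both cannot be told apart. In the fit of genes with any count, 13 collagen genes had a positive and 19 a negative log2 fold change. The median was -0.19, against 0.05 over all genes. These values include the 9 genes that were above the floor in no mouse, so no direction of the family is read from them.

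The exact permutation test over single genes, two-sided, gave a p under 0.05 for 1 of 32 collagen genes, against 2.82% of the 14161 genes with a count. This was Col5a2, named after its values were seen, with 3.45, 16.0, 0, 6.18 and 3.27 CPM in FO mice 1 to 5 and 13.3, 10.7, 10.95, 11.5 and 15.8 CPM in CO mice 1 to 5. FO mice 3 and 5 and CO mice 1 and 2 had 0 to 2 counts, under the floor, so the order of these mice is not read, and the counts of the others were at most 21. The exact permutation p was 0.0476 (n = 5 each, unadjusted) and rests in part on those values, and edgeR's adjusted p in the fit of genes with any count was 0.905.

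Leaving out mice with high Malat1 changed some of these calls. Without FO mouse 2, the fit of genes with any count called 4 of 31 collagen genes, against 5.71% of all genes. Besides Col10a1 these were Col4a2 (log2 fold change -0.94, SE 0.43), Col5a2 (-1.51, SE 0.73) and Col6a1 (-0.98, SE 0.52), all lower in the FO group, each with an edgeR adjusted p of 0.790. The other mouse with high Malat1, CO mouse 5, stayed in that fit. It held 34 of the 54 CO counts of Col6a1, 40 of 88 of Col4a2 and 12 of 32 of Col5a2. Without CO mouse 5, the same fit called 1 of 31 collagen genes, Col4a4 (edgeR adjusted p = 0.686), against 5.31% of all genes. Col4a4 then had 1 count left in the CO group, and 22 of its 30 counts in the FO group came from FO mouse 2. Without both mice, the fit of genes with any count called 1 of 28 collagen genes, Col10a1, against 4.15% of all genes. Under the default filter edgeR then called 0 of the 4 collagen genes that still passed it, against 72 of all 1830 genes tested. The log2 fold changes were then 0.23 for Col1a2, 0.08 for Col3a1, 0.05 for Col4a1 and -0.30 for Col1a1.

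Summed by class, the fibrillar genes had 191.1 ± 32.3 CPM with FO and 185.4 ± 40.4 CPM with CO (SD, n = 5 each). The basement membrane network had 96.8 ± 39.8 CPM with FO and 101 ± 41.6 CPM with CO. The beaded filament class had 52.7 ± 38.7 and 66.3 ± 34.2 CPM, and all other classes together 38.7 ± 11.3 and 53.7 ± 10.9 CPM. For the first 3 the difference between the means was smaller than the SD within either group. For the other classes the mean was lower in the FO group, by more than the SD within either group. The ranges (25.8 to 52.0 CPM and 43.0 to 66.5 CPM) overlapped, and the sum rests on 4 to 68 counts per mouse. No test of the class sums was made. Leaving out 1 mouse moved the log2 ratio of the class means, FO over CO, from 0.04 to between -0.06 (without CO mouse 4) and 0.14 (without CO mouse 1) for fibrillar genes. For the basement membrane network it went from -0.07 to between -0.27 (without FO mouse 2) and 0.18 (without CO mouse 5), and for beaded filaments from -0.33 to between -0.85 and -0.05 without the same mice. For the other classes it went from -0.47 to between -0.60 (without FO mouse 2) and -0.36 (without FO mouse 3).

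The balance of fibrillar and basement membrane collagen differed more between mice than between diets. Fibrillar genes took from 50.8% (95% exact Clopper-Pearson interval 44.5% to 57.1%) of the counts on both classes in CO mouse 5 to 79.5% (64.7% to 90.2%) in CO mouse 1. The mean was 67.4% ± 7.58 with FO and 64.8% ± 12.3 with CO (SD, n = 5 each). The mice with the fewest collagen counts, CO 1, CO 2, FO 3 and FO 5, had shares of 68.0% or more, and FO mouse 1 had 74.7%.

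Of 5 chosen pairs of chains that share a trimer or a fibril, the 3 in which both genes passed the filter were compared across the 10 mice. Col1a2 with Col3a1 was not among the pairs chosen. For Col1a1 with Col1a2, Pearson's r of log2 CPM was 0.14 (permutation p = 0.700, adjusted over the 3 pairs 0.892) and Spearman's rho was 0.35 (permutation p = 0.330, adjusted 0.892). For Col4a1 with Col4a2, r was 0.14 (permutation p = 0.692, adjusted 0.892) and rho was 0.18 (permutation p = 0.634, adjusted 0.892). For Col1a1 with Col3a1, r was -0.05 and rho 0.05 (permutation p = 0.892 for each, adjusted 0.892). No relation was detectable in these 3 pairs, and a relation between the chains is not excluded, as many values rest on few counts. Col4a1 had 3 counts in CO mouse 1, and Col4a2 had 1 in CO mouse 2 and 3 in FO mouse 5, at or under the floor. Without the 2 mice farthest from the median on the x axis, r was 0.06, 0.34 and -0.35 in the same order of pairs.

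Genes that act on collagens were taken from lists of their roles. Among 22 genes that modify and fold the chains, 2 were tested, P4hb (log2 fold change -0.05, SE 0.30) and Mia3 (-0.05, SE 0.32), and none passed the threshold. Of 16 genes for cleavage of the propeptides and crosslinking, 3 were tested and none passed. Pcolce2, an enhancer of the procollagen proteinase, had 37.6 ± 9.84 CPM with FO and 60.3 ± 22.6 CPM with CO (SD, n = 5 each; log2 fold change -0.62, SE 0.31, edgeR adjusted p = 0.998). Tgm2, a crosslinking transglutaminase, had a log2 fold change of 0.04 (SE 0.27).

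Among 11 genes of proteins that bind fibrils, 5 were tested, 1 higher in the FO group and 0 lower, against 2.91% of all genes tested in either direction. Bgn, which encodes the proteoglycan biglycan, had 192, 137, 265, 204 and 242 CPM in FO mice 1 to 5 and 133, 117, 112, 175 and 114 CPM in CO mice 1 to 5. FO mouse 2, a mouse with high Malat1, was the lowest of its group and lay below CO mouse 4, while the other 4 FO mice lay above every CO mouse. The log2 fold change was 0.64 (SE 0.24, 95% interval 0.15 to 1.13), with an exact permutation p of 0.0159 and an edgeR adjusted p of 0.998. The most abundant gene of the list, Sparc, had a log2 fold change of 0.09 (SE 0.22).

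Of 17 genes for degradation and its inhibitors, only the inhibitors Timp2 (log2 fold change -0.06, SE 0.19) and Timp3 (0.20, SE 0.21) were tested, and none of the collagenases or gelatinases passed the filter. Of 11 collagen receptor genes 5 were tested and none passed the threshold, with Itgb1, the shared beta subunit of the collagen-binding integrins, at 0.24 (SE 0.38) and Itga1 at -0.30 (SE 0.37). Of 15 basement membrane partners of type IV collagen, 2 were tested and none passed. They were Nid1 (0.27, SE 0.45), which links laminin to type IV collagen, and Lamb1 (0.15, SE 0.33), a laminin chain. Nid1 had 140 CPM in FO mouse 2, 29.5 to 47.2 CPM in the other FO mice and 17.8 to 73.5 CPM in the CO mice. Itgb1 had 484 CPM in FO mouse 2, 128 to 208 CPM in the other FO mice and 99.7 to 382 CPM in the CO mice. The positive values of both genes thus rest largely on FO mouse 2.

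Of 16 genes of TGF-beta signalling, which drives collagen transcription in fibroblasts, 4 were tested, 1 higher in the FO group and 0 lower, beside the 2.91% of all genes. This was Ctgf, which encodes a matricellular protein induced by TGF-beta, with 35.7, 32.1, 38.7, 103 and 62.2 CPM in FO mice 1 to 5 and 33.2, 47.9, 43.8, 21.0 and 3.94 CPM in CO mice 1 to 5. FO mice 4 and 5 were above every CO mouse. CO mouse 5 was the lowest and, on 3 counts, lay at its floor, and the other values overlapped. The log2 fold change was 1.07 (SE 0.48, 95% interval 0.05 to 2.08), with an exact permutation p of 0.159 and an edgeR adjusted p of 0.998. The call was lost when FO mouse 4 (log2 fold change 0.60), FO mouse 5 (1.03), CO mouse 1 (1.09), CO mouse 4 (0.97) or CO mouse 5 (0.68) was left out. Smad4 of the same list was at 0.28 (SE 0.34). The medians of the 7 lists ranged from -0.05 to 0.37, against 0.00 over the 2438 genes tested.

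The cells that make collagens were followed through marker lists. Of 12 fibroblast markers 5 were tested, none passed the threshold and the median log2 fold change was -0.05. Their summed level was 859 ± 259 CPM with FO and 862 ± 308 CPM with CO (SD, n = 5 each), most of it from Inmt (log2 fold change -0.09, SE 0.32), and Clec3b was at 0.25 (SE 0.29). FO mouse 2 (521 CPM), CO mouse 4 (554 CPM) and CO mouse 5 (608 CPM) were the lowest, and FO mouse 3 (1194 CPM) and CO mouse 1 (1203 CPM) the highest. The mice with high Malat1 had the highest summed collagen level, 539.5 CPM in FO mouse 2 and 491 CPM in CO mouse 5. They were also the highest of their groups in the summed endothelial, alveolar epithelial, smooth muscle and cardiomyocyte markers, collagen receptors and basement membrane partners, and FO mouse 2 was the lowest of its group in fibroblast markers. The part of these differences in the collagen values was not tested.

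Of 8 smooth muscle markers 3 were tested and 1, Acta2, the smooth muscle actin, was higher in the FO group, where 2.91% of all genes tested passed in either direction. It had 24.2, 37.4, 12.9, 48.2 and 45.8 CPM in FO mice 1 to 5 and 26.6, 5.33, 26.3, 14.7 and 17.1 CPM in CO mice 1 to 5. FO mice 2, 4 and 5 were above every CO mouse. FO mouse 3, on 2 counts, and CO mouse 2, on 1 count, were under their floors of 19.4 and 16.0 CPM, so they are not ordered. The log2 fold change was 0.99 (SE 0.37, 95% interval 0.21 to 1.77), with an exact permutation p of 0.119 and an edgeR adjusted p of 0.998. The summed level of the list was 208 ± 118 CPM with FO and 144 ± 38.7 CPM with CO (SD, n = 5 each). FO mouse 2, a mouse with high Malat1, had 394 CPM, and no other mouse exceeded 248 CPM, so the gap rests largely on that mouse. The most abundant gene was Myh11, which was not among the 3 tested. Tagln was at 0.35 (SE 0.37) and Des at 0.45 (SE 0.45). Without FO mouse 2 or without FO mouse 4, Acta2 did not pass the filter. Scaling by library size alone moved the median log2 fold change of all genes to -0.55 and ended the calls of Bgn (-0.12), Ctgf (0.58) and Acta2 (0.48). Relative to that median they were at 0.44, 1.13 and 1.03.

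Of 9 endothelial markers 3 were tested, and of 8 alveolar epithelial markers 7, and none passed. Pecam1 had a log2 fold change of -0.26 (SE 0.23) and Kdr of -0.10 (SE 0.33). Sftpc, which encodes surfactant protein C, was at 0.45 (SE 0.29) and Sftpa1 at 0.32 (SE 0.30). Endothelial markers summed to 305 ± 96.1 CPM with FO and 351 ± 73.9 CPM with CO, and epithelial markers to 2376 ± 548 and 1953 ± 539 CPM (SD, n = 5 each). The label of lung was thus met by its defining epithelial markers. Of 8 cardiomyocyte markers only Myh6 was tested (0.46, SE 0.60), and the list summed to 151 ± 117 CPM with FO and 85.3 ± 64.3 CPM with CO. FO mouse 2 had 355 CPM of the list and 128 CPM of Myh6. The next highest, CO mouse 5, had 192 and 86.6 CPM, so both FO values rest largely on FO mouse 2. No gene of the mesothelial, adipocyte and skeletal muscle lists was tested, and Pvalb of the skeletal muscle list lies on chromosome 15 and was not measured. Their sums with FO and with CO were 26.6 ± 10.4 and 29.5 ± 14.2 CPM, 11.9 ± 10.8 and 2.68 ± 2.82 CPM, and 23.1 ± 27.1 and 5.75 ± 7.75 CPM (SD, n = 5 each). The adipocyte sum was under the floor in FO mice 1 and 5 and CO mice 1, 2 and 5. The skeletal muscle sum was under it in FO mice 3 and 5 and CO mice 1, 2, 3 and 4, so the means of these lists are not compared.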

How the data were processed

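Lung RNA of 5 FO and 5 CO mice was sequenced as single-end reads. The authors deposited unnormalized read counts for each gene symbol, made with STAR 2.4.0f1, SAMtools 0.1.19 and htseq-count on mm10 (per the submitters' processing notes and the study's methods). TruSeq RNA v2 or riboZero libraries were used, and which mouse had which is not given in the sources used here, nor is the annotation or strand setting, so reads of overlapping genes may be split or shared. Diets were taken from the sample labels, and the sources do not agree on whether both had the same cholesterol content. No 2 mice had identical counts.

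The whole table was fitted in edgeR 4.0.16 (R 4.3.3) with TMM and the quasi-likelihood test, after its default filter (count of 10, total of 15), with Benjamini-Hochberg adjustment. The threshold, an unadjusted p under 0.05, is that of the study's methods. A second fit took all 14161 genes with any count. Standard errors are Wald errors from the quasi-likelihood variance. For single genes a two-sided exact permutation test was used over 252 assignments (smallest p 0.0079) on log2 CPM with a prior count of 2, and correlations with 100000 permutations. Exon lengths are those of GENCODE vM21, and positions those of RefSeq on GRCm38. The fits were tested on simulated data.

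Values per mouse are given for collagen genes that passed the filter. They are also given for those with an unadjusted p under 0.05 in the second fit or in the exact permutation test. For list genes they are given where edgeR's unadjusted p with the default filter was under 0.05. The 2 most abundant tested genes of a list are given with their log2 fold change. The members and lists were chosen with earlier results of these data known. Alternatives were DESeq2 1.42.0, RLE factors, library size alone, Rn45s left out, other filters, robust estimation, the replicate number as a block and each mouse left out. Leaving out FO mouse 2 and CO mouse 5 together was chosen after seeing the data.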

Additional observations from a re-analysis of the deposited data

Results flagged for a closer look

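The Malat1 share of counts other than Rn45s was 8.53% in FO mouse 2, where the next FO mouse had 0.928%, and 6.15% in CO mouse 5, where the next CO mouse had 1.05%. Each lay far outside the range of the other 4 mice of its group. Col4a1 in CO mouse 1 was at 19.9 CPM, on 3 counts, where the next lowest CO mouse had 53.3 CPM. Of 30 groups of 5 values looked at in this way 3 stood out, where chance flags about 1 in 20.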

How the results depend on the processing

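Of 2438 genes tested, edgeR called 71. Library size alone gave 36 calls (1 higher), genes with any count 587 (365 higher), a minimum of 10 counts in each mouse 15 of 633, and leaving out 1 mouse from 54 to 154, the most without FO mouse 2. The collagen count of 0 became 1 of 32 with genes of any count, and was 0 under every other alternative run, leave-one-out included. In the fit of genes with any count, the 1 collagen gene became 0 with DESeq2 and between 0 and 4 when 1 mouse was left out, not always the same gene (Col10a1, Col8a2, Col4a4, Col4a2, Col5a2 or Col6a1). Of all genes, that fit called 4.15% with every mouse, 5.71% without FO mouse 2 and 5.31% without CO mouse 5. The share is not given for the other alternatives, so these counts are not read as a result on collagens. Alternatives in which a gene failed the filter gave no value: of 19, Col1a2 and Bgn had 19, Col6a3 17, Acta2 15 and Col4a2 14, with none for Col4a2 without FO mouse 2, CO mouse 3 or CO mouse 5.

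Same-numbered mice are different animals, and the deviations of same-numbered mice had correlations from -0.41 to 0.03 (mean -0.12) over 5 pairs. Of the 5 FO mice, 0 correlated best with their own number. With the replicate block edgeR called 55 genes and 0 of 6 collagen genes, and Ctgf was at 1.13, no longer past the threshold. Among genes with any count the block gave 0 of 32 collagen genes. The share of all genes called there is not given, so this 0 is not read.

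Library size alone moved the median log2 fold change of all genes from 0.00 to -0.55. It gave -0.22 for Col1a2, -0.24 for Col3a1, -0.71 for Col4a1 and -0.12 for Bgn, opposite in sign to the main values, and relative to that median 0.33, 0.32, -0.16 and 0.44. Acta2 (0.48) and Ctgf (0.58), relative to it 1.03 and 1.13, were then not past the threshold. The log2 ratios of the class means were then -0.35 for fibrillar, -0.76 for basement membrane, -0.68 for beaded filament and -0.80 for other genes, against 0.04, -0.07, -0.33 and -0.47 with TMM, beside the shift of -0.55 in the median of all genes. With genes of any count Col1a1 was at 0.0093. Ctgf was also lost with robust estimation (1.07). Leaving out 1 mouse gave -0.29 to 0.15 for Col4a1, -0.18 to 0.10 for Col1a1, -0.43 to 0.11 for Col6a3, 0.03 to 0.46 for Col3a1, 0.09 to 0.33 for Col1a2 and -0.62 to -0.23 for Col4a2 where it was tested. With counts outside Rn45s as the total, r of Col1a1 with Col3a1 was 0.0029. The causes were not tested. The filter removed 26 members with a count.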

Other observations

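Counts of the common reference gene Gapdh were between 0 and 8 per mouse, while Actb had between 376 and 2770.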
